A study of Mus musculus with 4 samples.

Results

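The genes described here encode the enzymes that start O-linked glycans, build their first branches, make and activate sialic acid, attach it to glycans and remove it. They were taken by name from the protein-coding genes of the deposited count table: the Galnt, St3gal, St6gal, St6galnac, St8sia and Neu families, with C1galt1, C1galt1c1, Gcnt1, Gne, Nans and Cmas. St8sia1, St8sia5, St3gal5, St3gal2 and Neu3, which can act on gangliosides, were left out. The choice was by name, made with earlier results of these data known, and gave 42 of the 43432 genes in the table.

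The libraries were made from 4 subcutaneous tumours of 9464D-GD2 cells, grown in female C57BL/6 mice. The line derives from a tumour of mice that carry a MYCN transgene under the tyrosine hydroxylase promoter, and displays the ganglioside GD2. All 4 mice received 25 µg of dinutuximab, an antibody against GD2, 2 times per week for 5 treatments. In 2 of them each dose also held 20 µg of small extracellular vesicles (sEVs) shed by 9464D-GD2 cells. These 2 form the sEV group and the other 2 the dinutuximab group. Both groups carry tumour numbers 3 and 4, and the labels do not say what a number means, nor the age of the mice. No tumour without antibody was analysed here, and the tumours are of 1 cell line. The question is what differed in tumours given vesicles on top of the antibody.

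Mucin-type O-glycosylation begins in the Golgi, where a GALNT enzyme links N-acetylgalactosamine (GalNAc) to serine or threonine. Addition of galactose makes core 1, a further N-acetylglucosamine branch makes core 2, and sialic acid caps the chains. Sialic acid is made in the cytosol, activated to CMP-sialic acid and used by sialyltransferases named for the bond they form. On tumour cells, short or sialylated O-glycans are bound by lectins of immune cells, and polysialic acid on NCAM is a known feature of neuroblastoma.

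The libraries held between 24452699 and 28187573 counts. On the first principal component, which held 42.4% of the variance, sEV replicate 3 stood apart at 35.2, against -16.3 to -5.96 for the others. Among 15 neuroblastoma and sympathoadrenal markers, Dbh and Insm1 were among those at 0 counts in every library. Hand2 was at 145 to 172 CPM and Isl1 at 15.7 to 21.4 CPM, where CPM is a gene's count relative to the scaled size of its library (counts per 1e+06). With edgeR's quasi-likelihood test and Benjamini-Hochberg adjustment, 0 of 13823 tested genes differed between the groups, and 770 had an unadjusted p under 0.05. limma-voom called 0 genes and DESeq2 called 55. Every value below is for whole tumours, in which fewer cells of a type and less RNA per cell cannot be told apart.

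No gene of the set passed the test. Galnt15, an enzyme of O-glycan initiation, was the single member with an unadjusted p under 0.05, and it was higher with sEVs. The other tested members had log2 fold changes (sEV over dinutuximab) from -0.32 to 0.35, apart from Galnt17 at 1.10, which rested on 1 library. Of the 42 genes, 25 passed the filter on low counts and were tested, 11 had some counts but too few, and 6 had none in any library. Among the 25, 0 were called by edgeR, where percent called over all genes was 0%. At an unadjusted p under 0.05 there was 1 of 25 (4%), against 5.57% of all tested genes. It was the same gene by DESeq2, where 4.77% of all genes had an unadjusted p under 0.05, and by limma-voom, where 5.38% had. By direction, 1 was higher with sEVs, against 2.47% of all genes, and 0 were lower, against 3.1%. A log2 fold change of at least 0.5 in size was found in 2 of the 25 and in 10.2% of all tested genes. The median log2 fold change was 0.03 over the 25 and 0.0015 over all tested genes, and 14 were positive (56%, against 50.3% of all genes) and 11 negative.

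The promoter windows of 2 members are shown. Galnt15 had the lowest p of the set. Cmas, which activates sialic acid and whose groups overlapped, is shown beside it for contrast, as the supply gene of lowest log2 fold change. Each window is 300 bases, 250 before and 50 after a RefSeq transcript start on GRCm38.p6, written 5′ to 3′ on the plus strand. Galnt15 is at chr14:32028853-32029152 and Cmas at chr6:142756436-142756735. Capitals mark 2 motifs searched on both strands, the AP-1 motif (TGACTCA or TGAGTCA) and the core of the hypoxia-inducible factor (HIF) motif (ACGTG or GCGTG, or CACGT or CACGC on the opposite strand). They were picked because earlier results of these data concern hypoxia and AP-1 genes.
Galnt15: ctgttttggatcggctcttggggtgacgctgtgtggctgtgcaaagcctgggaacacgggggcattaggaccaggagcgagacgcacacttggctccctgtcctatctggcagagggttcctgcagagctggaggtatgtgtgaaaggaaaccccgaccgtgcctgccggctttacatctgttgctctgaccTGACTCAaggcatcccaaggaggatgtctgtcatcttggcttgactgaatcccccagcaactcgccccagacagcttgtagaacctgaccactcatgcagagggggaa
Cmas: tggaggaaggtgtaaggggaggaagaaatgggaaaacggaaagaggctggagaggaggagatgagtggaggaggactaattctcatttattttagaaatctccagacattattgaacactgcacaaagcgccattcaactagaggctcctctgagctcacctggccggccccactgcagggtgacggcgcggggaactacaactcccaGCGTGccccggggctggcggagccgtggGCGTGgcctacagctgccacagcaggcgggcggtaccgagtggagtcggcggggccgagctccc

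The Galnt15 window held 1 AP-1 motif, whose first base lay at -58 from the RefSeq start, and no HIF core. In GENCODE the gene begins earlier, at chr14:32028989, so the motif lies inside the gene as annotated there. The Cmas window held a HIF core at -42 and another at -14, both as GCGTG, and no AP-1 motif. An AP-1 motif was present in 5.2% of all 32851 RefSeq windows and in 4 of the 43 windows of members (9.3%). A HIF core was present in 43.8% of all windows and in 27 of 43 (62.8%) of the members'. Members' windows were also richer in G and C, with a median of 65.2% in the most CpG-rich window of each gene against 53.3% over all genes. These matches describe letters and not binding. Windows were found for 30 members and not for C1galt1c1, Galnt1, Galnt12, Galnt18, Galnt2, Galnt4, Nans, St3gal1, St6galnac1, St6galnac2, St6galnac5 and St8sia3.

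**Figure D1:**
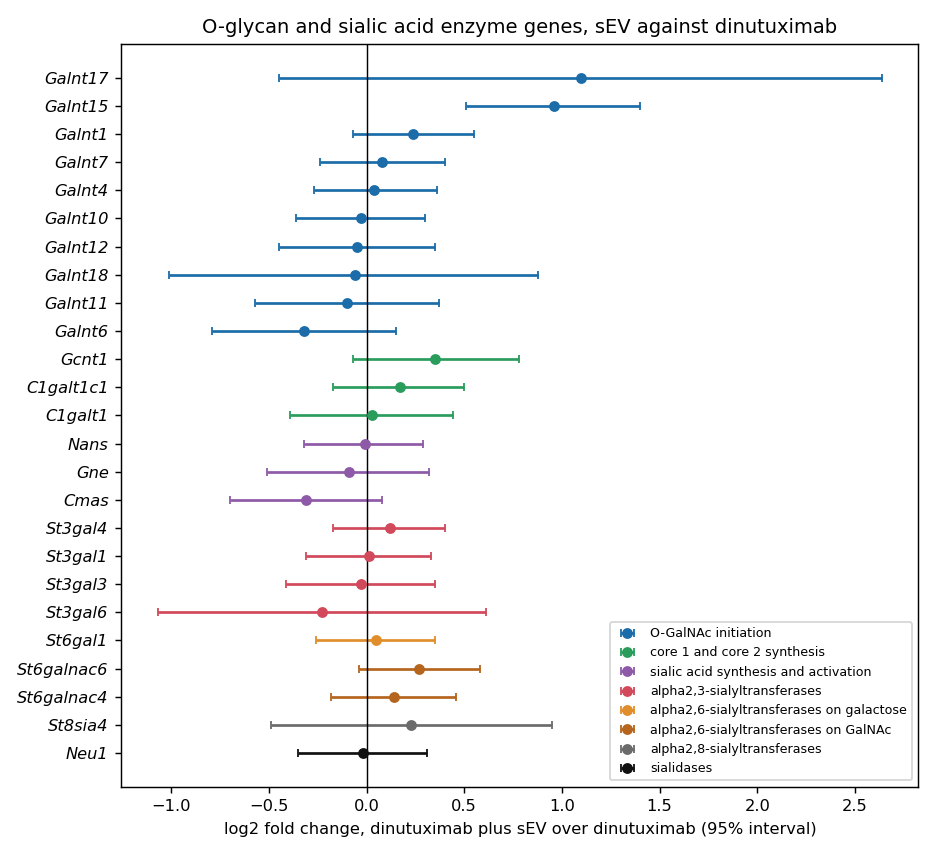
Log2 fold change of each tested gene (x axis, sEV over dinutuximab) with its 95% interval from the edgeR fit, grouped and coloured by role. Galnt15 is the gene whose interval, from 0.51 to 1.40, does not reach 0.

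Of the 17 GALNT genes, which start O-glycans by adding GalNAc to protein, 10 were tested. Galnt1, a widely expressed member of the family, had by far the highest level per length of all 42 genes. Its mean was 67.3 CPM per kb of exon, and it ranked first of the 42 in each of the 4 libraries. Its level was 338 and 343 CPM in the dinutuximab tumours and 437 and 366 CPM in the sEV tumours. Both sEV tumours lay above both dinutuximab tumours, by a log2 fold change of 0.24 ± 0.14 (SE), which did not pass (edgeR adjusted p = 0.902). Galnt1 made up 54.2% and 54.0% of the summed GALNT level per length with dinutuximab and 59.1% and 53.9% with sEVs. Galnt12 came next in the family at 19.6 CPM per kb. It had 44.6 and 46.8 CPM with dinutuximab and 36.9 and 51.2 CPM with sEVs, so the sEV tumours lay on either side of the dinutuximab pair.

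Galnt15 had 27.0 and 32.1 CPM in the dinutuximab tumours and 67.8 and 47.0 CPM in the sEV tumours. The groups did not overlap, and the sEV tumour of higher level was replicate 3, the library that stood apart. The means were 29.6 ± 3.55 and 57.4 ± 14.7 CPM (SD, n = 2). The log2 fold change was 0.96 ± 0.20 (SE), or 1.94-fold higher, with a 95% interval from 0.51 to 1.40. By the edgeR quasi-likelihood test its unadjusted p was 0.00101 and its adjusted p 0.463. It ranked 25 of 13823 genes by p. DESeq2 called it (adjusted p = 0.00407), as it did 0.398% of the tested genes, and limma-voom did not (adjusted p = 0.564). Without sEV replicate 3 the log2 fold change was 0.66 (edgeR adjusted p = 0.119), in a fit that called 0.93% of all genes and no member. Without sEV replicate 4 it was 1.20 and called (edgeR adjusted p = 2.7e-06), in a fit that called 2.23% of genes. It was the single member called by edgeR without the low-count filter, where 1.19% of genes were called, and with the tumour number as a replicate block, where 0.485% were. Galnt15 took 3.79% and 4.40% of the summed GALNT level per length with dinutuximab and 7.99% and 6.04% with sEVs. The gene (ENSMUSG00000021903) spans chr14:32028989-32062197 on the plus strand of GRCm38, and no other annotated exon overlaps its exons.

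Marker lists of other cell types and states had these values in the same tumours. Fibroblast markers summed to 632 and 627 CPM with dinutuximab and 899 and 756 CPM with sEVs, with 4 of the 8 tested positive and 4 negative. Macrophage markers had positive log2 fold changes in 9 of 10, up to 0.47, and summed to 2654 and 3016 CPM against 3398 and 3404 CPM. Pericyte and smooth muscle markers were negative in 8 of 8, summing to 108 and 102 CPM against 60.5 and 52.6 CPM, and Cnn1 was at 0 counts in all libraries. Endothelial markers were negative in 9 of 10, at 160 and 181 CPM against 139 and 129 CPM. Red blood cell markers were positive in 6 of 6, at 35.3 and 21.5 CPM against 71.1 and 43.7 CPM. The 6 tested skeletal muscle markers were all negative, at 22.6 and 19.8 CPM against 15.1 and 14.8 CPM. The 11 tested hypoxia and glycolysis genes were all negative (median -0.61), at 6179 and 5082 CPM against 4645 and 4544 CPM. So were the 12 immediate early and heat shock genes (median -0.37), at 2800 and 2584 CPM against 2428 and 2509 CPM. The summed levels of T and NK cell, B cell, neutrophil, keratinocyte, adipocyte, cell cycle and neuroblastoma markers overlapped between the groups. The share of counts in 8 genes that collect ribosomal RNA reads was 5.98% and 6.29% with dinutuximab and 5.01% and 4.31% with sEVs. The part of each of these in the Galnt15 values was not tested.

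**Figure D2:**
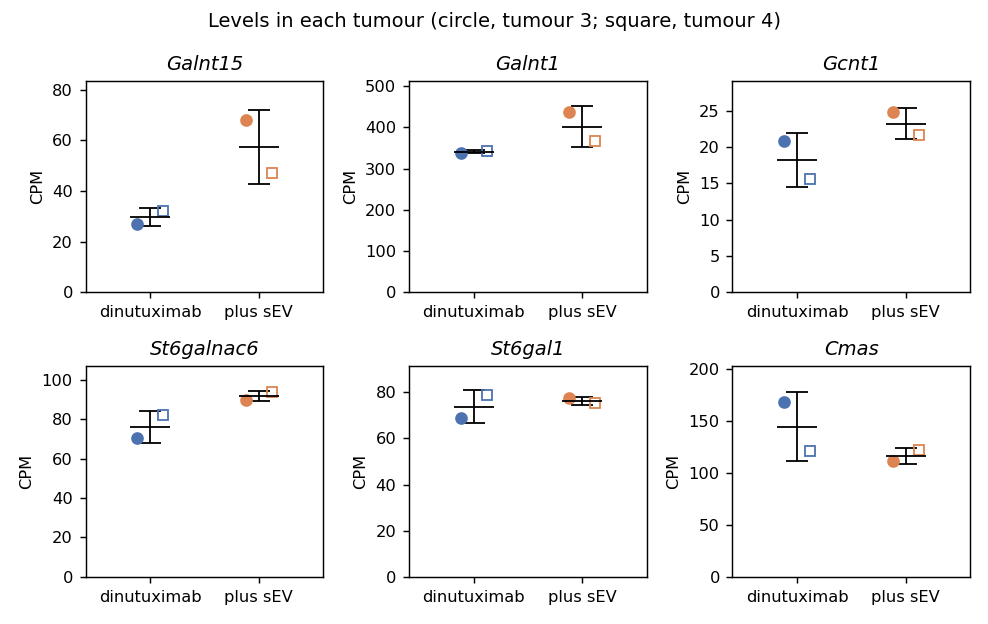
CPM (y axis, from 0) of 6 genes in each tumour, with the group mean and SD over 2 tumours as black bars. Galnt15 shows the 2 sEV tumours at 67.8 and 47.0 CPM above the 2 dinutuximab tumours at 27.0 and 32.1 CPM, while St6gal1 and Cmas overlap.

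None of the other tested GALNT genes had an unadjusted p under 0.05. Galnt7, which acts on peptides that already carry GalNAc, had 35.0 and 36.8 CPM with dinutuximab and 36.3 and 39.7 CPM with sEVs. Galnt4, also an enzyme of partly glycosylated peptides, had 31.3 and 32.0 CPM against 32.9 and 32.4 CPM. Galnt10 had 61.2 and 54.4 CPM against 60.8 and 52.3 CPM. The pairs of Galnt7 and Galnt10 overlapped between the groups, and those of Galnt4 were apart by a log2 fold change of 0.04 ± 0.14. Galnt6 had 11.3 and 10.6 CPM with dinutuximab and 9.74 and 7.83 CPM with sEVs, a log2 fold change of -0.32 ± 0.21. It was, with Galnt11 (-0.10 ± 0.21), 1 of 2 members in which both sEV tumours lay below both dinutuximab tumours. Galnt11 had 8.54 and 8.72 CPM with dinutuximab and 7.56 and 8.53 CPM with sEVs, so its groups almost touched. Galnt18 overlapped, at between 1.13 and 2.37 CPM.

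Galnt17, a brain-enriched family member, was at 12 and 10 counts with dinutuximab and 9 and 44 counts with sEVs. The higher value belongs to sEV replicate 4 alone, and without it the log2 fold change turned from 1.10 to -0.35. Galnt2, which is expressed in many tissues, was at 3 to 8 counts in every library. In the annotation 90.0% of its exon bases are shared with the gene Gm20388 on the same strand, which had 0 counts in all 4, and the counting mode was not given, so the Galnt2 count is uncertain. Galnt3, the gene whose product glycosylates FGF23, had 8 and 9 counts with dinutuximab and 4 and 6 counts with sEVs. Galnt16 had 9, 2, 1 and 0 counts and Galnt9 had 1, 1, 2 and 6 counts, in the order dinutuximab 3 and 4 and sEV 3 and 4. Galnt14 and Galnt5 each had 1 count in 1 library, and Galnt13 had none. A count of 0 allows up to 3 counts, or between 0.104 and 0.123 CPM in a library, for counting error only.

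**Figure D3:**
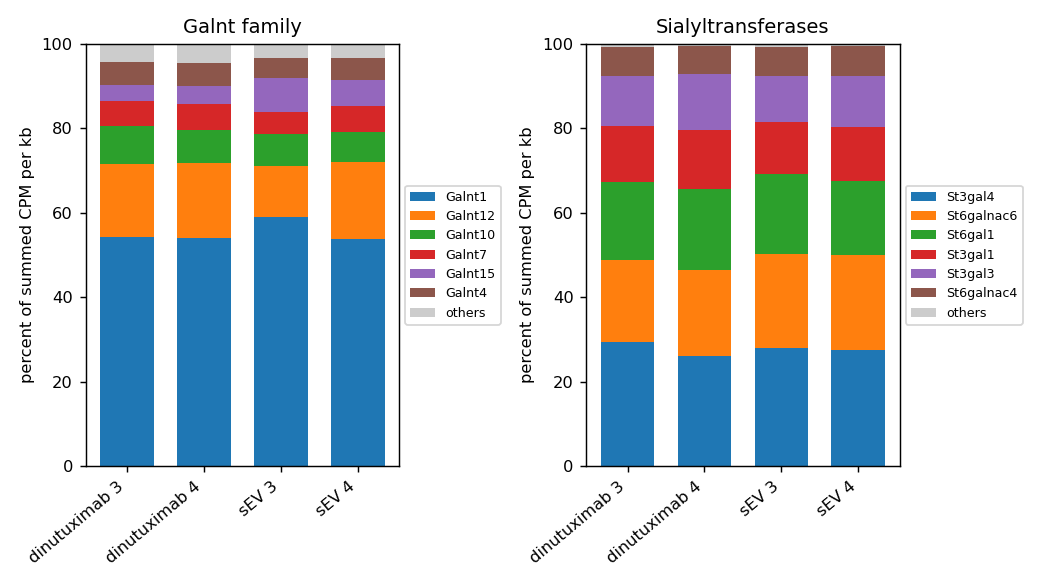
Share of the summed level per length (y axis, percent) of the GALNT genes, left, and of the 16 sialyltransferase genes in the set, right, in each tumour. Galnt1 holds between 53.9% and 59.1% of the GALNT sum and St3gal4 between 26.1% and 29.3% of the sialyltransferase sum.

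The 3 genes of core synthesis were all tested, and all 3 had positive log2 fold changes that did not pass. Of all tested genes 50.3% were positive, and C1galt1 was at -0.06 without sEV replicate 3. C1galt1, the galactosyltransferase of core 1, had 12.0 and 12.2 CPM with dinutuximab and 13.0 and 11.7 CPM with sEVs, so the groups overlapped. C1galt1c1, which encodes the chaperone COSMC that C1GALT1 needs to fold, had 41.4 and 34.9 CPM against 42.2 and 43.4 CPM. Gcnt1, the branching enzyme of core 2, had 20.8 and 15.6 CPM against 24.8 and 21.7 CPM. In C1galt1c1 and Gcnt1 both sEV tumours lay above both dinutuximab tumours, but by little beside the gap within the dinutuximab pair. The log2 fold change of Gcnt1 was 0.35 ± 0.19 with a 95% interval from -0.07 to 0.78 (edgeR adjusted p = 0.887). Per length the chaperone gene stood at 27.9 CPM per kb and its client enzyme C1galt1 at 2.01 CPM per kb.

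Genes of sialic acid supply were tested in full, with 3 of 3 negative and none past the test. Of all 13823 tested genes, 6870 were negative. Gne encodes the bifunctional enzyme that commits UDP-GlcNAc to sialic acid, and had 24.3 and 23.5 CPM with dinutuximab and 25.8 and 19.1 CPM with sEVs. Nans, the sialic acid synthase, had 159 and 138 CPM against 146 and 148 CPM, a log2 fold change of -0.01 with a 95% interval from -0.32 to 0.29. Cmas, whose product couples sialic acid to CMP, had 168 and 121 CPM against 111 and 122 CPM. All 3 overlapped between the groups, and the difference of the Cmas means, 144 ± 32.9 and 116 ± 7.59 CPM (SD, n = 2), came from dinutuximab replicate 3. Without that library the Cmas log2 fold change was -0.06, and with all libraries -0.31 ± 0.17 (edgeR adjusted p = 0.888). That of Nans was 0.09 without dinutuximab replicate 3, and that of Gne 0.11 without sEV replicate 4. Nans and Cmas ranked between 2 and 4 of the 42 genes per length in every library, and their order changed between libraries. Nans shares 29.6% of its exon bases with Trim14 on the opposite strand, and since the strand setting of the counting was not given, its counts are uncertain.

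**Figure D4:**
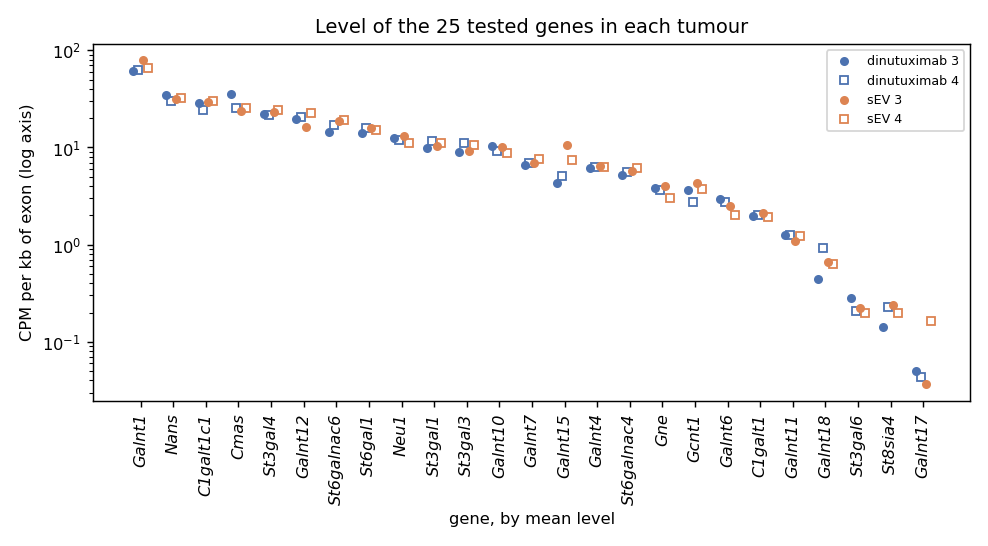
Level of the 25 tested genes (x axis, by mean) in CPM per kb of exon (y axis, log scale), 1 point per tumour. Galnt1 leads at between 61.2 and 79.2 CPM per kb, and the Galnt15 points of the sEV tumours lie above those of the dinutuximab tumours.

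Of the 16 sialyltransferase genes, 8 were tested and none had an unadjusted p under 0.05. St3gal4, which caps galactose on several kinds of glycan, had the highest level per length of them, at 22.8 CPM per kb. It had 64.5 and 63.8 CPM with dinutuximab and 68.5 and 70.4 CPM with sEVs, apart by a log2 fold change of 0.12 ± 0.13. St3gal1, which caps core 1, had 67.4 and 80.0 CPM against 71.5 and 76.9 CPM and overlapped, with a log2 fold change of 0.01 and an interval from -0.31 to 0.33. St3gal3 overlapped between 24.9 and 30.6 CPM. St3gal6 overlapped between 1.21 and 1.75 CPM, and 26% of its exon bases are shared with Dcbld2 on the opposite strand.

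St6gal1, the main enzyme of α2,6-sialylation on N-glycans, had 68.7 and 78.9 CPM with dinutuximab and 77.5 and 75.2 CPM with sEVs. The sEV values lay between the dinutuximab values, and the log2 fold change was 0.05 with an interval from -0.26 to 0.35. St6gal2, its brain-enriched relative, was at 0 counts in all libraries.

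Among the enzymes that place α2,6-linked sialic acid on GalNAc, 2 of 6 were tested. St6galnac6, which acts on glycolipids, had 70.4 and 82.0 CPM with dinutuximab and 90.0 and 93.6 CPM with sEVs. St6galnac4, which adds sialic acid to sialylated core 1, had 33.8 and 36.1 CPM against 36.8 and 40.2 CPM. In both genes the 2 sEV tumours lay above the 2 dinutuximab tumours. The log2 fold changes were 0.27 ± 0.13 and 0.14 ± 0.14 (edgeR adjusted p = 0.887 and 0.934). These genes are neighbours on the plus strand of chromosome 2, separated by 10 bases in the annotation, so reads at their boundary may be shared. St6galnac1, the main enzyme of sialyl-Tn, the sialylated single GalNAc, was at 0 counts in every library. St6galnac2, a related enzyme, was at 2 to 5 counts. St6galnac3 and St6galnac5 had no more than 1 count in a library.

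Of the 4 α2,8-sialyltransferases, 1 was tested. St8sia2, a polysialic acid synthase, had 1 count in a single dinutuximab library, and St8sia3 had none. St8sia4, the other polysialic acid synthase, had 2.85 and 4.63 CPM with dinutuximab and 4.81 and 3.95 CPM with sEVs, and the groups overlapped. Its log2 fold change was 0.23 ± 0.31, and the interval, from -0.49 to 0.95, was among the wider ones. St8sia6, an enzyme of O-glycans, had between 6 and 10 counts. Ncam1, the main carrier of polysialic acid, was between 25.9 and 29.0 CPM in the 4 libraries, with a log2 fold change of 0.01 ± 0.15.

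Of the sialidases, Neu1 was expressed at a level that could be tested. It encodes the lysosomal enzyme, and had 46.7 and 44.4 CPM with dinutuximab and 48.4 and 41.4 CPM with sEVs. The sEV pair enclosed the dinutuximab pair, and the log2 fold change was -0.02 with an interval from -0.35 to 0.31. Neu2 and Neu4 were at 0 counts in all 4 libraries. Ctsa, which encodes the protective protein that keeps NEU1 stable, had 352 and 388 CPM against 434 and 431 CPM. The groups did not overlap, and its log2 fold change of 0.22 ± 0.13 did not pass (edgeR adjusted p = 0.892).

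Over the 25 tested genes the groups did not overlap in 10, or 40%, against 34.6% of all tested genes. In 8 of them the sEV tumours were above, where 18.1% of all genes were, and in 2 below, where 16.5% were. The 8 were Galnt1, Galnt4, Galnt15, C1galt1c1, Gcnt1, St3gal4, St6galnac4 and St6galnac6. The 95% interval lay within a 2-fold change in either direction for 21 of the 25, and within a 1.5-fold change for 17. The 4 whose interval passed a 2-fold change were Galnt15, Galnt17, Galnt18 and St3gal6. The last 3 had no more than 2.37 CPM in any library, and the Galnt15 interval ran from 0.51 to 1.40. A p above the threshold does not show that a level was equal.

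Other genes of the pathway were taken from 7 lists. None of their tested genes passed the edgeR test after adjustment. DESeq2, which called 0.398% of all tested genes, called Clec10a, Mgl2 and Mcam, described below. Among enzymes that extend or sulfate O-glycans, 9 of 16 were tested, with 4 positive, 5 negative and a median of -0.10. B4galt1 and B4galt5, galactosyltransferases, and B4galt6, a glycolipid galactosyltransferase, had the highest levels per length. Their log2 fold changes were -0.10 ± 0.13, 0.13 ± 0.14 and 0.21 ± 0.17. B4galt4, another galactosyltransferase, was the 1 of 9 (11.1%, against 5.57% of all tested genes) with an unadjusted p under 0.05. It was at 10.7 and 11.0 CPM with dinutuximab and 18.6 and 13.4 CPM with sEVs (0.56 ± 0.21, edgeR adjusted p = 0.807).

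Genes of sialic acid transport, modification and recycling were tested in 8 of 9 cases, 4 positive and 4 negative, with a median of 0.00083 and none at an unadjusted p under 0.05. Renbp, an N-acetylglucosamine epimerase, Slc35a1, the Golgi carrier of CMP-sialic acid, and Npl, which cleaves sialic acid, led per length. They had log2 fold changes of -0.07 ± 0.13, -0.05 ± 0.14 and 0.33 ± 0.21. The 9 genes of UDP-GlcNAc and UDP-GalNAc supply had a median of -0.01. Uap1, which makes UDP-GlcNAc, was at -0.23 ± 0.14 and Gnpnat1, an earlier enzyme of the same route, at 0.09 ± 0.14, and 81.9% of the Gnpnat1 exon bases are shared with Styx on the opposite strand. Slc35d2, a nucleotide sugar carrier, was the 1 of 9 (11.1%, against 5.57% of all tested genes) with an unadjusted p under 0.05 (0.66 ± 0.27, edgeR adjusted p = 0.861) at between 2.70 and 5.06 CPM. The 8 lysosomal genes had a median of 0.10 with 6 positive and none at an unadjusted p under 0.05, and Hexa and Ctsa, among the highest per length, had log2 fold changes of -0.10 and 0.22.

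**Figure D5:**
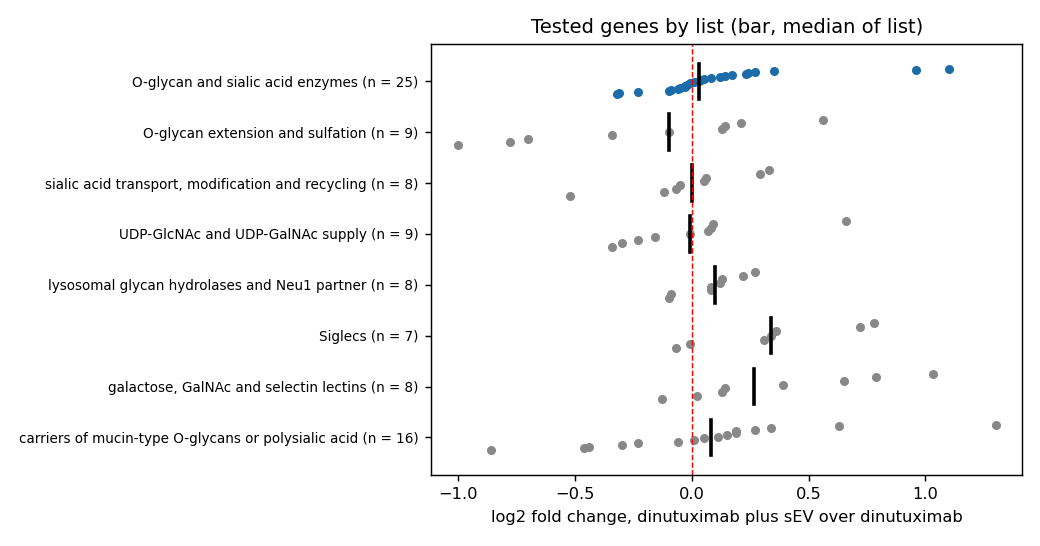
Log2 fold change (x axis, sEV over dinutuximab) of each tested gene in the enzyme set and in the 7 pathway lists. Points are genes, black bars list medians and the dashed line the median of all tested genes, 0.0015. The lectin list, at a median of 0.27, and the Siglec list, at 0.34, are shown beside the enzyme set, at 0.03. In the Siglec list, Mag, Siglecg and Siglec15 were at no more than 1.32 CPM.

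Lectins that read these glycans were the next list. Of 8 tested lectins of galactose, GalNAc or selectin type, 7 were positive (87.5%, against 50.3% of all tested genes), and the median was 0.27. An unadjusted p under 0.05 was found in 3 of them (37.5%, against 5.57% of all tested genes). Clec10a, which encodes the galactose-type macrophage lectin MGL1, had 12.7 and 16.7 CPM with dinutuximab and 29.4 and 30.5 CPM with sEVs. Its related gene Mgl2, whose product binds terminal GalNAc, had 38.4 and 41.4 CPM against 61.2 and 63.8 CPM, and Lgals9, a galectin, 38.2 and 35.7 CPM against 50.3 and 46.7 CPM. In all 3 the groups were apart, as they were in 5 of the 8 tested (62.5%, against 34.6% of all tested genes). The log2 fold changes were 1.03 ± 0.18, 0.65 ± 0.13 and 0.39 ± 0.14 (edgeR adjusted p = 0.383, 0.463 and 0.786). DESeq2 called Clec10a (adjusted p = 0.00246) and Mgl2 (adjusted p = 0.0368) and not Lgals9 (adjusted p = 0.764). Lgals1 and Lgals3, the galectin genes of highest level per length, had 0.14 ± 0.21 and -0.13 ± 0.14. The summed macrophage markers, given above, were higher in the same tumours, and their part in the lectin values was not tested.

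The Siglecs, receptors for sialic acid on immune cells, had 7 of 9 genes tested, 5 of them positive, with a median of 0.34 and none at an unadjusted p under 0.05. Siglec1, the macrophage sialoadhesin, had 19.8 and 21.1 CPM with dinutuximab and 24.5 and 26.3 CPM with sEVs, and Siglece 2.30 and 2.13 CPM against 2.79 and 2.81 CPM. The groups were apart in both, with log2 fold changes of 0.31 ± 0.15 and 0.34 ± 0.30. Over the list they were apart in 2 of 7 genes (28.6%, against 34.6% of all tested genes). The other positive genes, Mag, Siglecg and Siglec15, overlapped between the groups at no more than 1.32 CPM. Cd22, the B cell Siglec, had -0.01 ± 0.50.

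All 16 listed carriers of mucin-type O-glycans or polysialic acid were tested, with 10 positive, 6 negative and a median of 0.08. Cd164, Cd44 and Podxl, which encode heavily glycosylated surface proteins, led per length, with 0.19 ± 0.13, 0.11 ± 0.12 and 0.05 ± 0.15. At an unadjusted p under 0.05, 2 of the 16 were positive and 3 negative, or 31.2% in all, against 5.57% of all tested genes (2.47% higher and 3.1% lower). Cd34, a sialomucin of endothelial and stromal cells, had 35.9 and 42.9 CPM with dinutuximab and 56.8 and 64.8 CPM with sEVs (0.63 ± 0.15), and Cd24a, a small mucin-like protein, 1.30 ± 0.39 at no more than 2.10 CPM. Mcam, an adhesion molecule of vessels and pericytes, had 25.9 and 36.3 CPM against 17.9 and 16.3 CPM (-0.86 ± 0.19). Nrp2, a neuropilin that can carry polysialic acid, and Lrp8, an O-glycosylated lipoprotein receptor, had -0.46 ± 0.16 and -0.44 ± 0.14. The adjusted p of these 5 was between 0.463 and 0.791 by edgeR. DESeq2 called Mcam (adjusted p = 0.033) and none of the others. With sEVs the summed endothelial, pericyte and smooth muscle markers, given above, were lower, and the summed fibroblast and macrophage markers higher. Their part in the values of these 5 genes was not tested.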

How the data were processed

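Messenger RNA of 4 tumours was sequenced from stranded libraries, per the labels' protocols. The deposited files hold raw counts for each Ensembl gene, made by the authors, and all 173728 values agreed between the series table and the tables per sample. STAR, SAMtools, HTSeq and mm10 are named in the submitters' processing notes. No source used here gives versions, annotation, counting mode or strand setting. Names, positions and merged exon lengths came from GENCODE M21 (GRCm38, the assembly of mm10), which named 42548 IDs and left 884 unnamed.

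The counts were tested with edgeR 4.0.16 in R 4.3.3: filterByExpr defaults, TMM factors (0.976 to 1.02), and the quasi-likelihood F test with group as its only term. P-values were Benjamini-Hochberg adjusted over all 13823 tested genes at 0.05. CPM uses TMM-scaled library sizes; CPM per kb divides it by exon length. The 95% intervals use the fit's SE and are not adjusted for the number of genes. A permutation test of 2 against 2 cannot go below 0.333, and none was run. limma-voom (limma 3.58.1) and DESeq2 1.42.0, 3 scalings, 2 filters and leaving out each library were among the alternatives. The tests were also run on simulated counts drawn with the spread estimated from these same libraries, and the outcome is not reported here.

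The members and lists were chosen with earlier results of these data known. Members with an unadjusted p under 0.05 and the 2 of highest level per length in each role were to be given in full, and of pathway lists the genes with an unadjusted p under 0.05 and the 3 of highest level per length; other examples were picked with their values known. Siglec5 and Ca9 were not found by name in the annotation. Tumours of a group are biological replicates by the series' design text. Some genes of these lists are not reported here.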

Additional observations from a re-analysis of the deposited data

How the results depend on the processing

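The call of no member held with limma-voom, with RLE, upper-quartile and total-count scaling, with a filter of 1 CPM in 2 libraries, a robust prior, a 1.5-fold minimum, an adjusted p of 0.1, other library sizes, without the ribosomal RNA read genes and with the tables per sample. It changed in 4 fits, each time by Galnt15 alone. DESeq2 called 55 genes over all and 1 member. Without the low-count filter edgeR called 262 genes (1.19%) and 1 member. With the tumour number as a replicate block it called 67 genes (0.485%) and 1 member, and the Galnt15 log2 fold change was 0.94 (adjusted p = 0.0244). Same-numbered tumours deviated together by a correlation across genes of only 0.0659, so the numbers are not shown to pair the samples. Leaving out 1 library gave between 0 and 316 called genes, between 0 and 1 called members and member medians between 0.03 and 0.11, with 132 genes called without sEV replicate 3 and 316 without sEV replicate 4, where the prior degrees of freedom were infinite. Those fits take the spread of the lone library from the group that kept both. The member median of 0.03 became 0.06 with total-count scaling and 0.01 with the 1 CPM filter, which tests fewer members. The sign of 12 of 25 members was kept under every alternative and that of 13 changed under at least 1, none of them called; 5 of the 13 changed sign in fits with all 4 libraries. The log2 fold change of Galnt15 stayed between 0.66 and 1.20. The cause of these changes was not tested. Depth limits the 17 untested members, at 10 counts or fewer in every library.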
